A study of Tupaia belangeri with 6 samples.

Results

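The genes described here are the amyloid precursor protein gene APP and its partners in the biology of Alzheimer disease, measured in the prefrontal cortex of the tree shrew. The 9 genes looked for by symbol were APP, its relatives APLP1 and APLP2, the secretase genes BACE1 and PSEN2, the tau gene MAPT, the lipoprotein genes APOE and CLU, and the sorting receptor gene SORL1. Of these 9, 6 had a row under their own symbol, among 22608 loci with a symbol and 95863 loci in all, and APLP1, PSEN2 and APOE had none. The 6 found genes each had 1 row in every library, and no copy of any of the 9 was listed under a derived name.

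The libraries were made from polyadenylated RNA of the prefrontal cortex (PFC), each from 1 adult Tupaia belangeri, with 3 females (numbered 1, 3 and 4) and 3 males (numbered 1, 4 and 5), and the authors sequenced them as read pairs. The tree shrew is a small mammal close to primates, and the sample labels name neither an engineered allele nor a treatment. Each male was listed as older than each female, so age and sex cannot be told apart. The p-values below measure only the spread between these animals. The values are TPM, a transcript abundance unit scaled for transcript length and for the library, so that levels can be compared between genes. TPM keeps no sequencing depth and no counting interval could be given. The 6 libraries had between 30342 and 33114 loci above 0.

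The tissue label was checked against cell type markers. Neuronal markers were high, with SNAP25, a synaptic vesicle fusion protein, between 3088 and 4861 TPM, and SLC17A7, the glutamate transporter of cortical excitatory neurons, between 783 and 1569 TPM. The astrocyte gene GFAP lay between 170 and 349 TPM. Of the choroid plexus markers, OTX2 was listed at 0 in every library, and the 4 with a row summed to between 1.49 and 10.3 TPM. The summed microglial markers (6 of 6 with a row) ran from 162 to 304 TPM and the endothelial ones (5 of 5) from 397 to 607 TPM, and both sums overlapped between the sexes. The endothelial sum is mostly PECAM1, and 2 of its genes had females above males without overlap, CLDN5 (33.5 to 60.7 against 23.2 to 28.9 TPM) and FLT1 (27.1 to 31.7 against 23.2 to 26.8 TPM). Markers of a further 3 lists differed with sex or between single animals. The summed oligodendrocyte markers (MBP, MOG and MAG, the 3 of 6 with a row) were 348 to 482 TPM for the females but 80.7 to 236 TPM for the males. MAG separated the sexes, whereas MOG and MBP overlapped. The blood markers HBG, HBQ1 and ALAS2 (3 of 5 with a row) gave sums of 1275 to 2542 TPM for the females but 62.7 to 101 TPM for the males. Of the striatal markers (2 of 5 with a row), RGS9 was at 43.7 to 54.6 TPM in females 1 and 3 and male 1 and at 0.355 to 1.52 TPM in the other libraries, whereas DRD1, at 1.2 to 7.06 TPM, did not follow this split. In bulk tissue, fewer cells of a type and less RNA per cell cannot be told apart.

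APP is a transmembrane protein of neurons that can be cut along alternative routes. An α-secretase such as ADAM10 cuts within the amyloid-β stretch, whereas β-secretase (BACE1) followed by γ-secretase, a complex that can be built around PSEN2, releases amyloid-β. The sorting receptor SORL1 carries APP away from the compartments in which it is cut, tau (MAPT) binds microtubules in axons and aggregates in the disease, and apolipoprotein E (APOE) and clusterin (CLU) are secreted, largely by astrocytes, as lipid carriers and extracellular chaperones that bind amyloid-β.

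The 6 genes covered a wide range of levels. CLU was highest with a mean of 3432 ± 528 TPM (SD, n = 6), followed by APP with 1257 ± 195, APLP2 with 478 ± 45.2, MAPT with 278 ± 66.2, SORL1 with 53.5 ± 34.0 and BACE1 with 32.4 ± 17.2 TPM. From CLU down to SORL1, each gene exceeded the next in 6 of 6 libraries and the ranges of neighbours did not overlap. CLU exceeded APP by a mean ratio of 2.81 (1.82 to 4.02), APP exceeded APLP2 by 2.64 (1.99 to 3.02), APLP2 exceeded MAPT by 1.78 (1.41 to 2.12) and MAPT exceeded SORL1 by 9.98 (3.16 to 28.6). SORL1 exceeded BACE1 in 4 of 6 libraries, with ratios between 0.608 and 2.72, so the order of this last pair was not fixed. The reverse order was seen in female 4 and male 1.

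**Figure D1:**
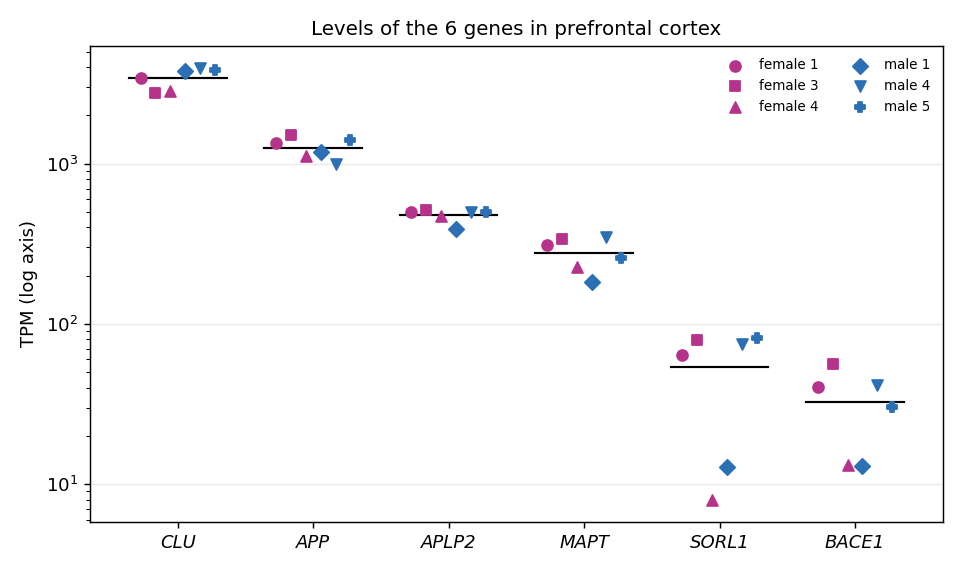
TPM (log axis) of the 6 genes in each library, with females in magenta, males in blue and 1 symbol per animal; black lines are means over the 6 libraries. CLU sits between 2749 and 3982 TPM in all animals, whereas SORL1 spans 7.96 to 81.9 TPM, with female 4 and male 1 at the bottom.

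APP (MSTRG.1398) spans 304243 bp on the minus strand of chromosome 1, from 74335609 to 74639851 of the TS_3.0 assembly, and encodes the precursor from which amyloid-β is cut. Its level was 1339, 1514 and 1121 TPM in females 1, 3 and 4, and 1177, 989 and 1399 TPM in males 1, 4 and 5. The sexes overlapped throughout, with male 4 lowest and female 3 highest. Among all loci of a library, APP ranked between 50 and 103. Its standard deviation of log2 TPM, 0.23, was below the median of 0.31 over the 8685 loci with a mean of at least 10 TPM, and it stood at percentile 25.6 of them. The female mean was 1324 ± 197 and the male mean 1189 ± 205 TPM (SD, n = 3 each, exact two-sided permutation p = 0.5). With 3 animals per sex, this test cannot give a p below 0.1.

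APLP2 (MSTRG.62109, chromosome 9, 17387568 to 17494432, plus strand) encodes a paralog of APP that is cut by the same secretases but holds no amyloid-β stretch. Its level was 497, 515 and 475 TPM in females 1, 3 and 4, and 390, 496 and 496 TPM in males 1, 4 and 5. In all, 5 of the libraries were close together and male 1 stood below them. APLP2 varied least of the 6 genes, with a coefficient of variation of 9.45% and a standard deviation of log2 TPM at percentile 6.29. The female mean of 495 ± 19.9 and the male mean of 461 ± 61.6 TPM differed by less than the spread between males (exact permutation p = 0.5). Relative to APP in the same library, APLP2 stood at 37.1%, 34.0% and 42.4% in the females and at 33.1%, 50.1% and 35.5% in the males. This ratio did not separate the sexes (log2 difference −0.046, exact permutation p = 0.9, Benjamini-Hochberg adjusted p = 0.9 over 3 ratios).

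APLP1, the remaining gene of the family, had no row under its symbol. In the RefSeq gene table of the related assembly TupChi_1.0, in which all 9 genes were matched, APLP1 lies next to KIRREL2 and NFKBID, near HCST and TYROBP. A locus named KIRREL2 (MSTRG.33157, chromosome 21, 29416568 to 29442896, minus strand) had levels of 1267, 1190 and 1135 TPM in females 1, 3 and 4, and of 1079, 1158 and 884 TPM in males 1, 4 and 5. Its name and place were looked up after the values had been seen. How much of its 1119 ± 131 TPM (SD, n = 6) belongs to which gene was not tested, and the locus is not counted as APLP1.

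BACE1 (MSTRG.61672, chromosome 9, 8160828 to 8187597, minus strand) encodes β-secretase, the protease that makes the first cut towards amyloid-β. Its level was 40.4, 56.3 and 13.1 TPM in females 1, 3 and 4, and 13.0, 41.4 and 30.1 TPM in males 1, 4 and 5. Female 4 and male 1 were the low pair, at about the same value, and the highest library exceeded the lowest 4.32-fold. Its standard deviation of log2 TPM was at percentile 96.4, above most loci with a mean of at least 10 TPM. The female mean was 36.6 ± 21.9 and the male mean 28.2 ± 14.3 TPM (exact permutation p = 0.7). Without female 4 and male 1, the mean level was 42.1 TPM. The end of BACE1 overlaps RNF214 on the plus strand, which was at 65.2 to 81.8 TPM, and since no strand-specific protocol was named, reads of the shared stretch cannot be told apart.

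Per unit of APP, BACE1 stood at 3.02%, 3.72% and 1.17% in females 1, 3 and 4, and at 1.11%, 4.19% and 2.15% in males 1, 4 and 5. The ratio of BACE1 RNA to APP RNA was therefore low in the same pair of animals, and protein was not measured. The sexes overlapped (log2 difference 0.13, exact permutation p = 0.9, adjusted p = 0.9 over 3 ratios).

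PSEN2, the presenilin that was to stand for γ-secretase, had no row under its symbol. In the RefSeq table its nearest named neighbours are SLC9C2 and ITPKB, and a locus named SLC9C2 (MSTRG.19314, chromosome 16) was measured at 17.3 to 25.8 TPM, which cannot be divided among genes here. Of the other subunits of the complex, nicastrin (NCSTN), which binds the substrate, was between 71.5 and 83.7 TPM and APH1A between 50.2 and 69.9 TPM.

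SORL1 (MSTRG.61782, chromosome 9, 11256286 to 11521611, minus strand, 265326 bp) encodes the sorting receptor that binds APP. Its level was 63.8, 79.2 and 7.96 TPM in females 1, 3 and 4, and 12.8, 75.4 and 81.9 TPM in males 1, 4 and 5. Of the 6 libraries, 4 lay within a narrow band and female 4 and male 1 lay far below it, so that the highest library exceeded the lowest 10.3-fold. No other of the 6 genes varied as much, with a coefficient of variation of 63.6% and a standard deviation of log2 TPM of 1.45 at percentile 98.9. The low pair held 1 animal of each sex, and the female mean of 50.3 ± 37.5 and the male mean of 56.7 ± 38.2 TPM did not separate (exact permutation p = 0.6). Without these animals the mean level was 75.1 TPM.

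Relative to APP, SORL1 stood at 4.77%, 5.23% and 0.710% in females 1, 3 and 4, and at 1.09%, 7.63% and 5.85% in males 1, 4 and 5. The low pair was low on this scale too. The log2 difference between the sexes was −0.49 (exact permutation p = 0.5, adjusted p = 0.9 over 3 ratios).

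**Figure D2:**
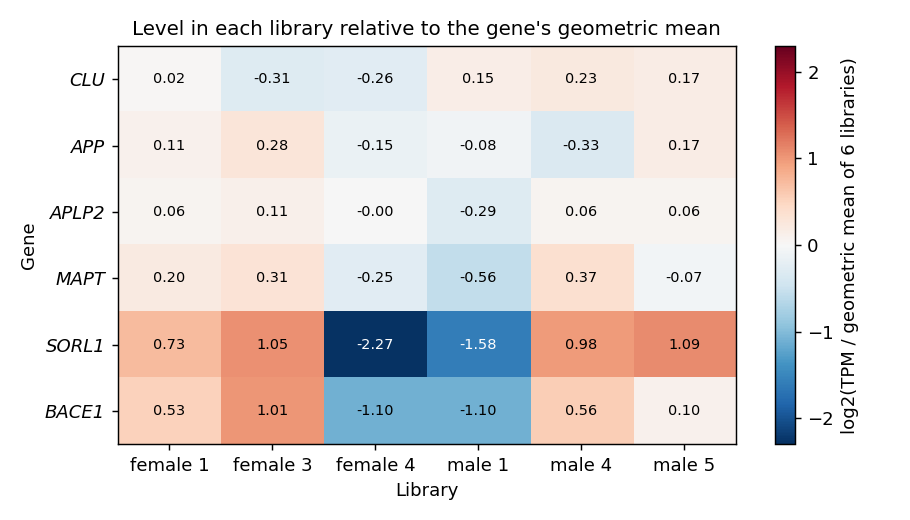
Each cell gives log2 of TPM over the gene's geometric mean across the 6 libraries, with red above and blue below that mean; rows are genes and columns are libraries. SORL1 reached −2.27 in female 4 and −1.58 in male 1, and BACE1 −1.10 in both, whereas CLU stayed between −0.31 and 0.23.

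Female 4 and male 1 were the lowest pair for 4 of the 6 genes, APLP2, BACE1, MAPT and SORL1. Of the 8685 loci with a mean of at least 10 TPM, 16.3% had this pair lowest, and among the 15 possible pairs it ranked 3 by number of loci. The lowest pair of APP was female 4 and male 4, and that of CLU was female 3 and female 4. Summed neuronal markers were 6499 TPM in female 4 and 7530 TPM in male 1, against 6230 to 8193 TPM in the other libraries, a sum that is mostly SNAP25. Of its other genes, SLC17A7 was at 783 TPM in male 1, 1003 TPM in female 4 and 1067 to 1569 TPM elsewhere. The inhibitory neuron gene GAD1 (107, 128 and 141 to 297 TPM) had this same pair lowest too. SNAP25, SYT1 and STMN2 instead had female 4 and male 4 lowest. Male 1 was highest for SNAP25 (4861 TPM) and STMN2 (828 TPM) and was at 951 TPM for SYT1. Summed astrocyte markers (5 of 6 with a row) were 1404 TPM in female 4 and 1432 TPM in male 1. The other libraries were at 1906 to 2184 TPM, in a sum that is mostly SLC1A2 and SLC1A3. SLC1A2, SLC1A3 and GFAP had female 4 and male 1 lowest. AQP4 had female 4 (64.9 TPM) and male 4 (87.3 TPM) lowest, with male 1 at 98.9 TPM. ALDH1L1 was highest in female 4, at 50.8 TPM against 7.12 to 29.1 TPM elsewhere. The part of these markers in the low SORL1 and BACE1 values was not tested.

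The shape of the SORL1 signal also differed in this pair. The deposited coverage of a locus, put on the TPM scale of its library, equals TPM where the locus is read as a single transcript, and the ratio of TPM to coverage rises above 1 where TPM rests on transcripts shorter than the locus as a whole. For SORL1 this ratio was 1.15 in females 1 and 3 and males 4 and 5, but 1.50 in female 4 and 1.53 in male 1. On this reading, the SORL1 TPM of the low pair rested more on short transcripts than that of the other animals. The standard deviation of the log2 ratio of SORL1 was at percentile 83.2 among 11976 stranded loci with coverage above 1 in every library. A share of other loci thus varied as much in this ratio. Coverage itself, on the TPM scale, was 5.31 in female 4 and 8.36 in male 1, against 55.5 to 71.3 in the others. A set of 7 assembled loci without a strand lies within the SORL1 span and summed to 33.5 TPM in male 1, 0 in female 4 and between 0.626 and 7.24 TPM elsewhere. In male 1 these loci thus exceeded the 12.8 TPM given to SORL1, and whether they hold SORL1 reads was not tested.

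BACE1 had ratios of 1.32 to 1.41 in 4 libraries, but 1.81 in male 1 and 1.70 in male 5. Female 4, with 1.32, was not among the high ones, so the low BACE1 values did not share 1 pattern of coverage. The ratios of the other genes ran from 1.50 to 1.57 for APP, 1.69 to 1.79 for APLP2, 1.27 to 1.36 for MAPT and 1.45 to 1.72 for CLU. The standard deviation of the log2 ratio was at percentile 83.2 among loci for SORL1 and 80.8 for BACE1. It was at 62.1 for CLU, above that of APP (36.6), MAPT (40.8) and APLP2 (41.5).

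**Figure D3:**
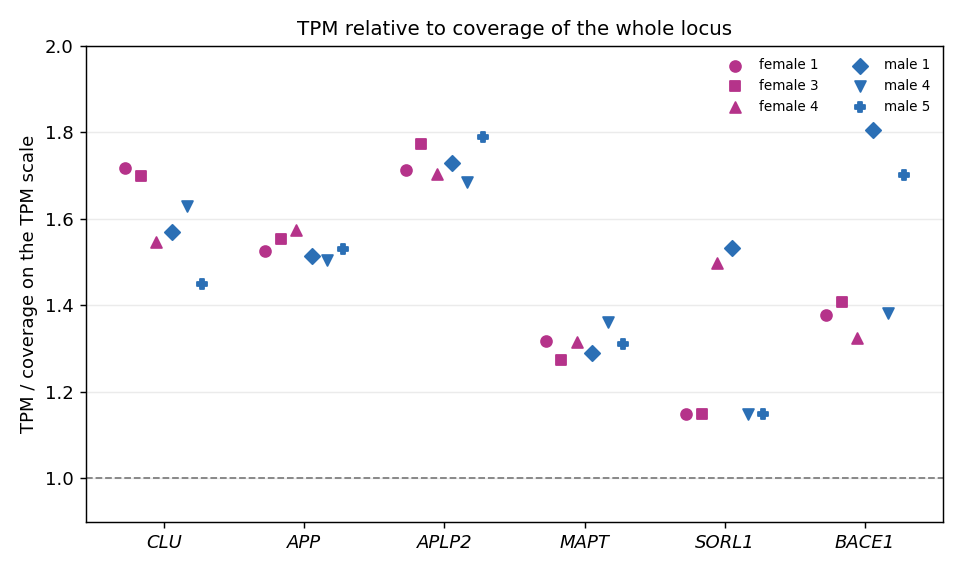
Ratio of TPM to coverage on the TPM scale for each gene and library, with females in magenta and males in blue; the dashed line at 1 marks a locus read as a single transcript. SORL1 is at 1.15 in 4 libraries and at 1.50 and 1.53 in female 4 and male 1, whereas APP lies between 1.50 and 1.57 in all.

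MAPT (MSTRG.17957, chromosome 15, 60868976 to 60991804, minus strand) encodes tau. Its level was 313, 337 and 228 TPM in females 1, 3 and 4, and 184, 351 and 259 TPM in males 1, 4 and 5. Male 1 was lowest and male 4 highest, so the males spanned the females. The female mean was 292 ± 57.6 and the male mean 264 ± 83.9 TPM (exact permutation p = 0.7). The standard deviation of log2 TPM was at percentile 64.9. KANSL1 on the opposite strand overlaps one end of MAPT and was at 12.3 to 30.4 TPM, and 3 loci on the opposite strand inside MAPT summed to between 0.461 and 5.56 TPM, far below MAPT in each library.

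CLU (MSTRG.24511, chromosome 19, 12984063 to 13005916, minus strand) encodes clusterin, a secreted chaperone also called apolipoprotein J. Its level was 3443, 2749 and 2831 TPM in females 1, 3 and 4, and 3771, 3982 and 3819 TPM in males 1, 4 and 5. CLU ranked between 9 and 17 among all loci of a library. Every male was above every female, and the male mean of 3857 ± 111 TPM stood above the female mean of 3008 ± 379 TPM. The exact two-sided permutation p was 0.1, the smallest this design can give. CLU was the only 1 of the 6 genes whose sexes did not overlap, and 9.81% of the 27996 autosomal genes tested had no overlap in either direction (4.84% with females and 4.97% with males higher). A count of 1 in 6 is therefore not a result about these genes.

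The oligodendrocyte marker sum (through MAG) and the blood marker sum also separated the sexes, in the opposite direction to CLU, and their part in the CLU values was not tested. The astrocyte sum, of the cells that make much of the brain's clusterin, overlapped between the sexes, at 1404 to 2079 TPM for the females and 1432 to 2184 TPM for the males (exact permutation p = 0.7).

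APOE, the other apolipoprotein gene, had no row under its symbol. In the RefSeq table it lies between TOMM40 and APOC1, with NECTIN2 on the far side of TOMM40. A locus named NECTIN2 (MSTRG.41135, chromosome 27, 21336244 to 21411035, plus strand), whose identifier carries the name APOE in the study's own gene list, had levels of 1369, 838 and 1118 TPM in females 1, 3 and 4, and of 608, 949 and 719 TPM in males 1, 4 and 5. The sexes overlapped, with means of 1108 ± 266 and 759 ± 174 TPM (exact permutation p = 0.2), and the limma difference was 0.54 ± 0.28 (SE) on the log2(TPM + 1) scale with an adjusted p of 0.925. Its ratio of TPM to coverage, 3.09 to 5.20, was above that of the 6 found genes, and its TPM cannot be divided among the genes it spans. It is not counted as APOE.

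The sexes were then compared across all genes with limma on log2(TPM + 1), a scale that understates changes of weakly expressed genes. All 6 found genes passed the filter of at least 0.1 TPM in 3 or more libraries, and 0 of 6 were called at a Benjamini-Hochberg adjusted p under 0.1, where 0.0143% of autosomal genes were called (4 of 27996, or 0.00714% with females higher and 0.00714% with males higher). None of the 6 had an unadjusted p under 0.05 either, against 5.04% of the autosomal genes. As female minus male, the log2 difference was 0.16 ± 0.27 (SE) for APP, 0.11 ± 0.19 for APLP2, 0.28 ± 0.56 for BACE1, 0.17 ± 0.27 for MAPT, −0.30 ± 0.91 for SORL1 and −0.37 ± 0.36 for CLU, with adjusted p-values between 0.935 and 0.983. The differences of these 6 genes were thus smaller than or about as large as their standard errors. The median over all autosomal genes was −0.031 and the median absolute difference 0.29.

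CLU is the gene whose test leaned most on the variance model. Its own 6 values gave an unmoderated standard error of 0.10 for the difference of −0.37, whereas limma, which pools the variance of genes with similar levels, gave 0.36. Without the trend of the variance on the level, the standard error was 0.23 and the adjusted p 0.950. Over 19 alternative fits the CLU difference stayed between −0.47 and −0.30 with males higher in each, and the lowest adjusted p was 0.734. For APLP2, BACE1, MAPT and SORL1 the sign changed in at least 1 of the fits, and so no direction is given for them. Without male 1 the differences of APLP2 and MAPT were −0.0029 and −0.063, and without both male 1 and female 4 they were 0.027 and 0.11. Without female 4, the SORL1 difference was 0.70, and without male 1 it was −1.15. Without both of these animals it was −0.14. The BACE1 difference was 0.88 without female 4, −0.17 without male 1 and 0.42 without both.

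**Figure D4:**
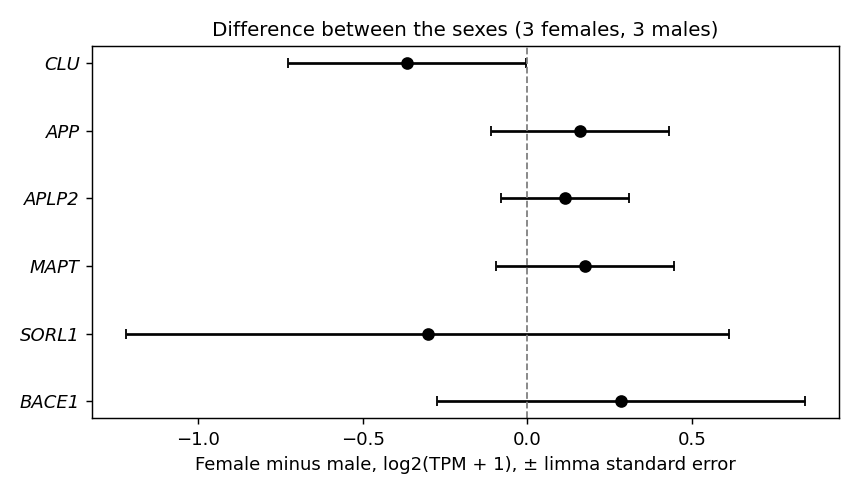
Female minus male difference of log2(TPM + 1) for each gene, with bars of 1 limma standard error (3 females, 3 males) and a dashed line at 0. CLU, at −0.37 with males higher, and SORL1, at −0.30, lie to the left, and the bar of SORL1 (SE 0.91) is the widest.

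The wider pathway was followed in 77 genes of 9 groups, of which 60 had a row and 59 passed the filter. No gene was called in either direction (lowest adjusted p 0.925), and 2 had an unadjusted p under 0.05. The sexes did not overlap for 4 of the 59 genes (6.78%), against 9.81% of all autosomal genes. The difference was positive for 39 and negative for 20 (66.1% positive, against 46.7% of all autosomal genes), with a median of 0.071 against −0.031 over all autosomal genes. The autosomal median ran from −0.072 to 0.0099 under other scalings and FPKM, so these shares are read as a description only.

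Among the other proteases that cut APP, the α-secretases were lower than APP itself. ADAM10, the main α-secretase of neurons, was at 16.5, 20.6 and 8.38 TPM in females 1, 3 and 4, and at 5.87, 23.8 and 19.5 TPM in males 1, 4 and 5. ADAM17 was at 12.02, 18.1 and 9.93 TPM in the females and at 6.95, 16.2 and 21.7 TPM in the males. Both were lowest in male 1 and next lowest in female 4, whereas MMP14, the highest gene of this group (27.6 to 49.3 TPM), was highest in male 1. BACE2, the paralog of BACE1, was low at 1.93 to 4.34 TPM. ADAMTS4, a metalloprotease of oligodendrocytes, was at 37.2, 37.9 and 38.5 TPM for the females against 25.2, 22.0 and 25.2 TPM for the males, without overlap (log2 difference 0.63 ± 0.17 SE, limma adjusted p = 0.925). The oligodendrocyte marker MAG also had all females above all males, and its part in the ADAMTS4 values was not tested. Of the amyloid-degrading proteases, IDE (insulin-degrading enzyme) was at 9.47 to 18.7 TPM and ECE1 (endothelin-converting enzyme) at 4.62 to 31.8 TPM, with female 4 and male 1 again lowest for ECE1.

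Of 11 adaptors and regulators that bind APP or its secretases, 10 had a row. RTN4 (979 ± 178 TPM, SD, n = 6), a reticulon of the endoplasmic reticulum, and ITM2C (864 ± 107 TPM), a BRI family protein that binds APP, were the highest of these. The range of RTN4 overlapped that of APP, whereas ITM2C, at 706 to 981 TPM, lay below it. APBB1 (373 ± 58.6 TPM), which encodes the adaptor Fe65, and ITM2B (206 ± 22.9 TPM) followed. In the sorting group, 10 of 12 genes had a row, led by the retromer subunit VPS35 (160 ± 25.5 TPM), sortilin (SORT1, 111 ± 15.5 TPM), the endocytic adaptor BIN1 (99.1 ± 12.1 TPM) and VPS26B (87.4 ± 23.6 TPM). VPS35 was above SORL1 in each library, whereas VPS26A, another retromer subunit, had a mean of 59.8 ± 7.44 TPM, close to that of SORL1. SORCS2, a relative of SORL1, was at 32.5, 34.1 and 19.6 TPM in females 1, 3 and 4, and at 19.5, 14.0 and 12.3 TPM in males 1, 4 and 5, and the sexes did not overlap, although female 4 and male 1 were close (log2 difference 0.85 ± 0.28 SE, limma adjusted p = 0.925).

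On the side of tau, 11 of 15 kinases, activators and phosphatases had a row. Among them were CDK5R2 (371 ± 68.2 TPM) and CDK5R1 (292 ± 50.0 TPM), the neuronal activators of the tau kinase CDK5, and CDK5 itself (195 ± 38.9 TPM). MARK2 was listed at 0 in 5 of 6 libraries. Of the other microtubule-associated proteins, MAP4 (347 ± 93.8 TPM), MAP2 (315 ± 64.5 TPM) and MAP1B (223 ± 34.1 TPM) had levels like that of MAPT, and MAP6 was at 64.6 ± 8.23 TPM.

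Lipoprotein receptors and transporters (10 of 11 with a row) were led by LRP1 (81.8 ± 18.9 TPM), a large receptor for apolipoprotein E and APP, and by the reelin receptor LRP8 (49.1 ± 5.07 TPM), followed by the cholesterol-esterifying enzyme LCAT (20.7 ± 7.28 TPM) and the sterol transporter ABCG1 (19.9 ± 6.82 TPM). All 4 were far below CLU. Of the microglial risk genes (5 of 7 with a row), TYROBP was at 30.8 ± 9.56 TPM, PLCG2 at 14.4 ± 0.994 TPM, SPI1 at 5.81 ± 1.84 TPM and INPP5D at 4.89 ± 1.56 TPM. PLCG2 and BIN1 were the other genes without overlap, PLCG2 with males higher (log2 difference −0.14 ± 0.22 SE) and BIN1 with females higher (0.22 ± 0.16 SE), both under 2 standard errors from 0.

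**Figure D5:**
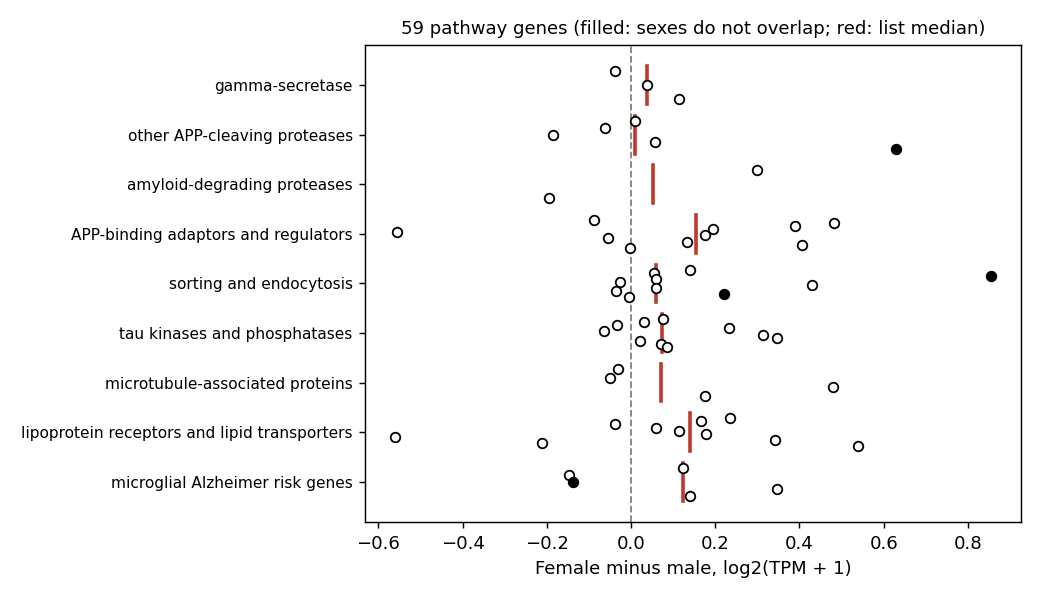
Female minus male difference of log2(TPM + 1) for the 59 pathway genes that passed the filter, 1 point per gene and 1 row per group, with filled points where the sexes do not overlap and red lines at the group medians. The 4 filled points are ADAMTS4 (0.63), SORCS2 (0.85), BIN1 (0.22) and PLCG2 (−0.14), and no gene passed the adjusted threshold.

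Finally, the genes with the most similar pattern across the 6 libraries were listed for each found gene, as the 2 named genes with the highest Pearson r of log2(TPM + 1) among 6397 with a mean of at least 10 TPM. These are descriptions over 6 points from shared libraries, taken as the best of many genes. For SORL1 they were M6PR, the cation-dependent mannose 6-phosphate receptor (r = 0.999), and the transcription factor gene FOXO3 (r = 0.998). FOXO3 was at 3.0 TPM in female 4 and 5.19 TPM in male 1, against 33.3 to 36.9 TPM in the others, whereas M6PR ran only from 26.8 to 35.1 TPM, so the size of the difference was not shared. For BACE1 they were UPF1 (0.997), a helicase of nonsense-mediated decay, and the lipid kinase gene PI4KA (0.995), and for MAPT ZNF687 (0.999) and the inhibitory synapse gene NLGN2 (0.988). For APLP2 they were IDUA (0.995) and SYMPK (0.988), for APP ADSS2 (0.987) and SPAG6 (0.981), and for CLU AFG3L1 (0.995) and LCN2 (0.977).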

How the data were processed

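Prefrontal cortex RNA-seq libraries of 6 tree shrews were grouped as female or male by the sample titles. The authors mapped the reads to TS_3.0 with HISAT2 2.2.1, assembled transcripts with StringTie 2.2.1, merged them with the reference annotation and measured each animal against the merged set (versions per the submitters' processing notes). The deposited tables hold coverage (mean signal over a locus, not scaled for depth), FPKM and TPM computed by the authors with StringTie, and no counts, so the study's DESeq2 test was not repeated. TPM keeps no depth, and the FPKM given to 1 unit of coverage differed by at most 1.12-fold between libraries.

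Rows of 1 gene ID and chromosome were summed. A gene of the set was matched only by its exact symbol. Coverage was put on the TPM scale with the ratio seen at loci without a strand. Over 11976 stranded loci with coverage above 1 in every library, the ratio of TPM to coverage had a minimum of 1.00 and a median of 1.38. Female minus male differences of log2(TPM + 1) were fitted without covariates by limma 3.58.1 (R 4.3.3), letting the variance depend on the mean, for 27996 autosomal and 744 X-linked genes, with at least 0.1 TPM in 3 libraries. Benjamini-Hochberg adjustment was done apart for autosomes and X, with a threshold of 0.1. Segments of X and chromosome 26 that the study set aside, and unplaced contigs, were left out. Single values were compared by exact two-sided permutation. The script was tested on simulated data. Python 3.11.15, numpy 2.4.6, pandas 2.3.3, scipy 1.17.1 and matplotlib 3.10.9 were used. Gene neighbours came from the RefSeq table of TupChi_1.0, whose coordinates were not used.

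Named genes were all 9 of the set, up to 4 of the highest genes of each pathway group and any called, and the 2 genes most similar to each. Further genes (BACE2, SORCS2, VPS26A, MARK2 and the loci beside absent genes) were added after their values were seen. The members and lists were chosen with earlier results of these data known. Alternatives were another pseudocount, filters, scalings, FPKM, rows kept apart, no trend, a covariate, a replicate block, joint adjustment and each animal left out, and 2 were added after seeing the data, coverage in place of TPM and a fit without male 1 and female 4. Values of some genes of the pathway groups are not reported here. Sequences were not used here.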

Additional observations from a re-analysis of the deposited data

Results flagged for a closer look

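The APLP2 level of male 1, 389.5 TPM, stood apart from the other 5 libraries. Its gap to the next value was 0.682 of the whole range, above Dixon's critical value for 6 samples. Chance exceeds that value in about 1 in 20 groups. All 6 genes were scanned at both ends, so chance gives a flag in such a scan more often than that. The cause was not tested.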

How the results depend on the processing

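No member was called in any of 20 alternatives. Of the refitted member differences 104 kept their direction and 10 did not, and APP and CLU kept theirs throughout. With the share of TPM on loci without a strand as a covariate, BACE1 was at −0.085 and MAPT at −0.071, and with the replicate block BACE1 was at −0.016. Leaving out 1 animal gave −0.0029 to 0.17 for APLP2, −0.17 to 0.88 for BACE1, −0.063 to 0.40 for MAPT and −1.15 to 0.70 for SORL1. The ratios to APP then ran from −0.16 to 0.14 for APLP2, −0.35 to 0.64 for BACE1 and −1.36 to 0.45 for SORL1. The count of 4 autosomal calls became 0 without the trend, 0 with the covariate, 2 with the replicate block, 19 without male 1 and female 4, and 2 to 5 with 1 animal left out (2 without female 1 and 2 without male 5). Where not given by the construction, the cause was not tested.

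Only numbers 1 and 4 occur in both sexes, on different animals, and same-numbered animals did not deviate together (r = 0.00098 and 0.038). With coverage in place of TPM, mean levels were 819 for APP, 276 for APLP2, 212 for MAPT and 2155 for CLU, and the other 62 level values moved by less than 1 SD. Ratios with APLP1, PSEN2 and APOE were planned and not computed, as these had no row, and the longest row of each gene was its only row. TPM holds no counts, so no counting limits can be given for SORL1 and BACE1. The deposited coverage of SORL1, not scaled for depth, was 8.17 in female 4 and 11.4 in male 1, against 77.7 to 88.6 elsewhere. That of BACE1 was 15.2 in female 4 and 9.84 in male 1, against 22.0 to 50.7 elsewhere.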
